A study of Mus musculus with 9 samples.

Results

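The beta-defensin genes Defb1, Defb3, Defb4, Defb6 and Defb14, the cathelicidin gene Camp and the peptidoglycan recognition protein genes Pglyrp1, Pglyrp3 and Pglyrp4 were followed in mouse skin RNA. They were chosen by name and are 9 of the 49585 genes in each gene table. The skin came from wild type C57BL/6 mice, wild type BALB/c mice and mice whose genotype is given as IL-6 -/- on C57BL/6, with 3 libraries in each group. The last are called IL-6 KO-labelled libraries below. Animals were bought at 4 to 5 weeks of age, rested for 2 weeks and entered the study at 6 weeks. All groups were shaved on day 0 and given no treatment for 7 days, and skin was taken on day 8, so each level below is a level in shaved skin. The protocol lists 3 C57BL/6, 3 BALB/c and 6 IL-6 -/- mice without saying which mouse gave which library, so p-values measure only the spread between these libraries. Within each group that spread exceeded counting noise (chi-square per degree of freedom 4.39 to 48.5 between pairs of libraries), and how much of it is technical is not known.

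Beta-defensins are short cationic peptides, folded around disulphide bonds between conserved cysteines, that damage microbial membranes and attract immune cells. Epithelial cells make them, some steadily and some after microbial or cytokine stimulation. Cathelicidin is stored in neutrophil granules, is also made by keratinocytes, and is cut from its precursor by proteases before it kills microbes. Peptidoglycan recognition proteins bind the bacterial cell wall: Pglyrp1 is best known from neutrophil granules, and Pglyrp3 and Pglyrp4 from surface epithelia such as skin.

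Total exon reads per library were 6083876 to 6882193 in C57BL/6, 6115739 to 6242332 in BALB/c and 3843953 to 4476346 in the IL-6 KO-labelled libraries, so a rare transcript was harder to detect in the last group, whose lower depth and genotype cannot be told apart. The targeted gene went against its label. Il6 had 2, 1 and 0 reads in C57BL/6 and 0, 2 and 0 in BALB/c, while the IL-6 KO-labelled libraries held 6, 24 and 1. Without the filter on low counts, Il6 was higher there than in C57BL/6 by 3.62 ± 1.14 log2 units (SE; adjusted p = 0.0381, edgeR quasi-likelihood test). Which exons were removed is not stated, so whether such reads could come from a deleted gene is not known here. BALB/c replicate 2 stood apart by 130 reads of Xist, against 3 and 2 in the other BALB/c libraries and 0 to 5 in the remaining 6, while it held 427 reads of the Y-linked Eif2s3y. Skin markers were present in all libraries, but their mixture differed: the summed level of 17 differentiated keratinocyte genes was 15804 to 24987 CPM (reads per 1000000 after TMM scaling) in C57BL/6, 24208 to 27273 CPM in BALB/c, and 7250, 27701 and 9952 CPM in the IL-6 KO-labelled libraries. The sum follows its most abundant members: gene by gene, 5 of the 17 were higher and 1 lower in the IL-6 KO-labelled libraries than in C57BL/6, with a median log2 difference of 0.57. Of all tested genes, a similar share, 35.2%, was called there (19.2% higher and 16% lower), with a median of 0.01. The 10 skeletal muscle genes summed to 56228 to 100346 CPM in C57BL/6, 26463 to 55081 CPM in BALB/c and 9112 to 10282 CPM in the IL-6 KO-labelled libraries, and 12 hair genes to 10.8 to 677 CPM, 8.48 to 22.3 CPM and 16364 to 65070 CPM. The part that this mixture plays in the results below was not tested, and in whole skin fewer cells of a type and less RNA per cell cannot be told apart.

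The 5 beta-defensin genes lie on the plus strand of chromosome 8 and have 2 exons each (GRCm38 positions from the deposited tables, which match GENCODE vM21). Defb14 (chr8:19194357-19195212), Defb4 (chr8:19198706-19201545), Defb6 (chr8:19225478-19228209) and Defb3 (chr8:19293360-19295291) form 1 group, in which Defb14 and Defb6 are 30.3 kb apart. Defb1 (chr8:21776599-21795185) lies 2.48 Mb beyond Defb3. The coding sequences of the 3 beta-defensins with measurable expression are shown because the comparison turns on reads assigned to closely related genes. They come from the reference transcripts, which are of the C57BL/6 genome, with in-frame cysteine codons in capitals.

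Defb14: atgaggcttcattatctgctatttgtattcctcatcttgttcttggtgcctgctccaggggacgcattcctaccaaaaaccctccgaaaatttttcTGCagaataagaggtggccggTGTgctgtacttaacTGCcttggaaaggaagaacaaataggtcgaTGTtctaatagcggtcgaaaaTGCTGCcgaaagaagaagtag
Defb6: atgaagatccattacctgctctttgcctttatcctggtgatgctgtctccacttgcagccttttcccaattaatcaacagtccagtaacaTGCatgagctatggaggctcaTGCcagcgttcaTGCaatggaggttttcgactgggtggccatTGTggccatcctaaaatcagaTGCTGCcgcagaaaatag
Defb1: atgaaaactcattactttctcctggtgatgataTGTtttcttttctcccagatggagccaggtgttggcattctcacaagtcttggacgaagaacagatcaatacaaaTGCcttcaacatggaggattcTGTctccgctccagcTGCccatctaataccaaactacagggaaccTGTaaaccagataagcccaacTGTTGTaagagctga

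Defb14 and Defb6 hold 6 cysteine codons each, and Defb1 holds 7, the first of them near the start of the reading frame. All 3 end in a pair of adjacent cysteine codons. Aligned over their coding sequences, Defb6 and Defb14 share 128 bases, 66.7% of the shorter sequence, and Defb4 and Defb6 share 78.6%. Unique exon reads equalled total exon reads for each of the 9 genes in all 9 libraries, so no counted read of these genes was multi-mapped.

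Defb6, a beta-defensin described in skeletal muscle as well as in epithelia, had the highest mean level per length of the 9 genes in each of the 3 groups. Its reads were 110, 214 and 62 in C57BL/6 and 192, 138 and 238 in BALB/c, while the IL-6 KO-labelled libraries held 33, 93 and 71. Scaled to length and library total, its level was 60.8 ± 36.3 RPKM (reads per 1000 exon bases per 1000000 exon reads; SD, n = 3) in C57BL/6, 94.9 ± 25.0 RPKM in BALB/c and 46.9 ± 19.0 RPKM in the IL-6 KO-labelled libraries. Within C57BL/6 the highest library was 2.77 times the lowest in CPM, and the BALB/c libraries overlapped with that range. All 3 IL-6 KO-labelled libraries were below all 3 of BALB/c. Within C57BL/6, replicate 3 had the highest sum of muscle genes and the lowest Defb6, and replicate 2 the lowest sum and the highest Defb6. Within BALB/c, replicate 2 had the highest sum and the lowest Defb6, but replicate 1, with the lowest sum, was in the middle for Defb6. In the IL-6 KO-labelled libraries, replicate 2 was highest in both. Between groups, the IL-6 KO-labelled libraries had the lowest muscle sums (9112 to 10282 CPM) and the lowest mean Defb6 (14.2 ± 5.15 CPM). BALB/c went the other way from C57BL/6. Its muscle sums were lower (26463 to 55081 against 56228 to 100346 CPM) and its mean Defb6 was higher (30.7 ± 7.83 against 20.1 ± 10.6 CPM). The part of muscle in the Defb6 level was not tested.

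Defb1, usually described as a steadily expressed beta-defensin, overlapped between C57BL/6 and each other group. Reads were 105, 155 and 74 in C57BL/6 and 64, 107 and 113 in BALB/c, while the IL-6 KO-labelled libraries held 93, 116 and 95. Its length-scaled level was 19.6 ± 6.87, 17.6 ± 5.11 and 27.4 ± 2.54 RPKM in that order of groups. It came next after Defb6 in C57BL/6, without overlap, and in the IL-6 KO-labelled libraries, where the ranges of both genes overlapped. In BALB/c it stood below Defb6 and Defb14 without overlap.

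Defb14, a beta-defensin known to be inducible in keratinocytes, was scarce in C57BL/6 and plentiful in BALB/c. It had 2, 3 and 2 reads in C57BL/6 and 49, 27 and 36 in BALB/c, while the IL-6 KO-labelled libraries held 2, 16 and 7. The lowest BALB/c library held 9 times the reads of the highest C57BL/6 library, at a similar depth. The length-scaled level was 1.76 ± 0.434 RPKM in C57BL/6, 29.6 ± 8.46 RPKM in BALB/c and 9.28 ± 7.60 RPKM in the IL-6 KO-labelled libraries. The annotated Defb14 transcript is 204 bases of coding sequence with no untranslated part, whereas Defb6 and Defb1 carry 131 and 662 untranslated bases, so RPKM values rank these genes only as far as the annotation is complete. Reads that cross the exon junction numbered 2, 3 and 2 in C57BL/6 and 47, 21 and 35 in BALB/c, while the IL-6 KO-labelled libraries held 1, 10 and 4, in the same order of groups as the exon reads.

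Defb3 and Defb4, both described as inducible, were at the edge of detection. Defb3 had 1 read in C57BL/6, in replicate 3, 3 and 1 reads in BALB/c replicates 1 and 3, and 0 in the IL-6 KO-labelled libraries. Defb4 had 0 reads in all C57BL/6 and BALB/c libraries and 1 read each in replicates 1 and 2 of the IL-6 KO-labelled libraries. A count of 0 allows up to 3 reads, which is 0.436 to 0.78 CPM (unscaled) across the libraries, counting error only. Neither gene passed the filter on low counts, and no difference was detectable at this depth. Of 43 beta-defensin names in the tables, 17 had any read and 4 had over 10. The 5 described here held 90.9% of the 2447 beta-defensin reads, and the largest of the others, Defb8, had 22, 0 and 17 reads in C57BL/6 and 117, 9 and 7 in BALB/c, while the IL-6 KO-labelled libraries held 7, 14 and 2.

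The promoters of Defb6 and Defb3 are shown because their letters are alike while their levels are far apart. Each run holds 250 bases before to 50 after the annotated start on the plus strand (RefSeq, GRCm38.p6). Defb3 is chr8:19293111-19293410 and Defb6 is chr8:19225228-19225527. Capitals mark matches to TTGCNNAA, a C/EBP-type motif.

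Defb6: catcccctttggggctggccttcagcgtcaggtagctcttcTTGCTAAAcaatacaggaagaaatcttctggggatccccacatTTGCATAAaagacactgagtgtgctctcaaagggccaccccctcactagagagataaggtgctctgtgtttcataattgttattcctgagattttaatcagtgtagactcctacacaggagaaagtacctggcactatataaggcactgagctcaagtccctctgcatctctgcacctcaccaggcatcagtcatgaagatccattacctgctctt
Defb3: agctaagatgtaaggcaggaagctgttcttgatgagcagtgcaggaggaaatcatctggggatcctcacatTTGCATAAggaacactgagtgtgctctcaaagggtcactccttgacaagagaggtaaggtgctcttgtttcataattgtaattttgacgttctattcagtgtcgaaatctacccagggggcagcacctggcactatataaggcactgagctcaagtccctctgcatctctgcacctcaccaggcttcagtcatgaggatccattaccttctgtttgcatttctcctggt

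The promoters were identical at 244 of 285 aligned bases, 85.6%. TTGCATAA begins 166 bases before the start of Defb6 and 179 bases before that of Defb3, and Defb6 has a further match, TTGCTAAA, 209 bases before its start. On either strand, TTGCNNAA occurs in 10.8% of 32851 promoters of this length. Against this likeness, group means ran from 46.9 to 94.9 RPKM for Defb6 and from 0 to 0.780 RPKM for Defb3. The same search with an NF-kB motif, TTCNNNGAA (STAT), TGANTCA (AP-1) and TATAAA found, among the promoters of Defb3, Defb6, Camp and Pglyrp1, 1 match, in Pglyrp1, of the NF-kB motif 93 bases before its start. These motifs occur in 0.411%, 8.30%, 7.81% and 13.6% of the promoters. The exact string TATAAA does not match the tatataag that the promoters of Defb6 and Defb3 both hold. A match of letters is a description and not a binding site.

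Camp, the single mouse cathelicidin gene, and Pglyrp1 were close to the limit of detection in skin. Camp (chr9:109847379-109849617, minus strand) had 3, 0 and 3 reads in C57BL/6 and 0, 1 and 1 in BALB/c, while the IL-6 KO-labelled libraries held 0, 3 and 6. Pglyrp1 (chr7:18871331-18890459, plus strand) had 3, 5 and 4 reads in C57BL/6 and 2, 0 and 3 in BALB/c, while the IL-6 KO-labelled libraries held 1, 2 and 2. For Pglyrp1 the tables also list 54 intron reads over all libraries against 22 exon reads, so much of what was counted at this locus lay outside its exons. Without the filter on low counts, none of Defb3, Defb4, Camp and Pglyrp1 passed edgeR's test in any comparison or reached an unadjusted p under 0.05, the smallest adjusted p being 0.214 for Camp between the IL-6 KO-labelled libraries and BALB/c.

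Neutrophils are a known source of both Camp and Pglyrp1, and their marker genes were uneven. Mmp9, a protease gene that other cells use too, had 35 to 195 reads per library. The granule genes Ngp, Ltf, Mpo, Elane and Ctsg had 0 to 8 reads per library. In the IL-6 KO-labelled libraries Ngp and Elane had 0 reads, Mpo 2, 0 and 0, Ctsg 0, 1 and 0, and Ltf 2, 0 and 1. Prtn3 did not pass there, at a log2 difference of -1.71 against C57BL/6 (adjusted p = 0.0791, edgeR) and -1.86 against BALB/c (adjusted p = 0.0568). Of 17 neutrophil genes, Ly6g and Fcnb had 0 reads in all libraries and 7 were tested. By edgeR 0 of the 7 passed between BALB/c and C57BL/6 (1 at an unadjusted p under 0.05, and 0 by DESeq2). Of the 7, 3 were higher in the IL-6 KO-labelled libraries than in C57BL/6 (S100a9, S100a8 and the chemokine receptor gene Cxcr2), and 2 were higher than in BALB/c (S100a8 and S100a9), where 19.2% and 19.9% of all tested genes were higher. The summed level of the list was 31.0 to 38.1 CPM in C57BL/6, 31.7 to 41.8 CPM in BALB/c, and 43.9, 134 and 48.8 CPM in the IL-6 KO-labelled libraries. Its part in the Camp reads was not tested. S100a8 and S100a9 are also made by stressed keratinocytes.

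Pglyrp4, the epithelial recognition protein gene at chr3:90726906-90741517 (plus strand, 8 exons), showed the widest spread of group means among the 5 genes with enough reads to test. Its reads were 183, 316 and 80 in C57BL/6 and 7, 9 and 9 in BALB/c, while the IL-6 KO-labelled libraries held 19, 83 and 33. The lowest C57BL/6 library held more than 8 times the reads of any BALB/c library, and the IL-6 KO-labelled libraries lay between, with replicate 2 slightly above C57BL/6 replicate 3. Its length-scaled level was 12.4 ± 7.51 RPKM in C57BL/6, 0.571 ± 0.0843 RPKM in BALB/c and 4.36 ± 3.05 RPKM in the IL-6 KO-labelled libraries. Reads across exon junctions were 55, 99 and 17 in C57BL/6 and 1, 2 and 4 in BALB/c, while the IL-6 KO-labelled libraries held 5, 21 and 8. Intron reads were 33, 60 and 14, then 3, 1 and 2, and then 3, 20 and 13 in the same order, so the exon, junction and intron reads were all lowest in BALB/c. All of these reads were mapped to the C57BL/6 reference, and whether BALB/c reads were lost in mapping was not tested.

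Pglyrp3 (chr3:92014583-92031582, plus strand, 7 exons), the other gene of the family known from surface epithelia, lies 1.27 Mb from Pglyrp4 and shares 74.1% of its coding bases with it. Pglyrp3 had 10, 27 and 6 reads in C57BL/6 and 11, 12 and 9 in BALB/c, while the IL-6 KO-labelled libraries held 4, 18 and 6, and its ranges overlapped in all 3 comparisons. Its length-scaled level was 1.98 ± 1.53, 1.56 ± 0.227 and 1.93 ± 1.48 RPKM. Those values are of exon reads. Intron reads of Pglyrp3 were 2, 3 and 4 in C57BL/6 and 14, 8 and 10 in BALB/c, while the IL-6 KO-labelled libraries held 1, 3 and 1. Per 100 exon reads that was 20.9, 100 and 17.9 in the same order of groups, so BALB/c differed here. A processed pseudogene, Mif-ps3, lies within the span of Pglyrp3 on the same strand. Its part in the intron reads was not tested.

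**Figure D1:**
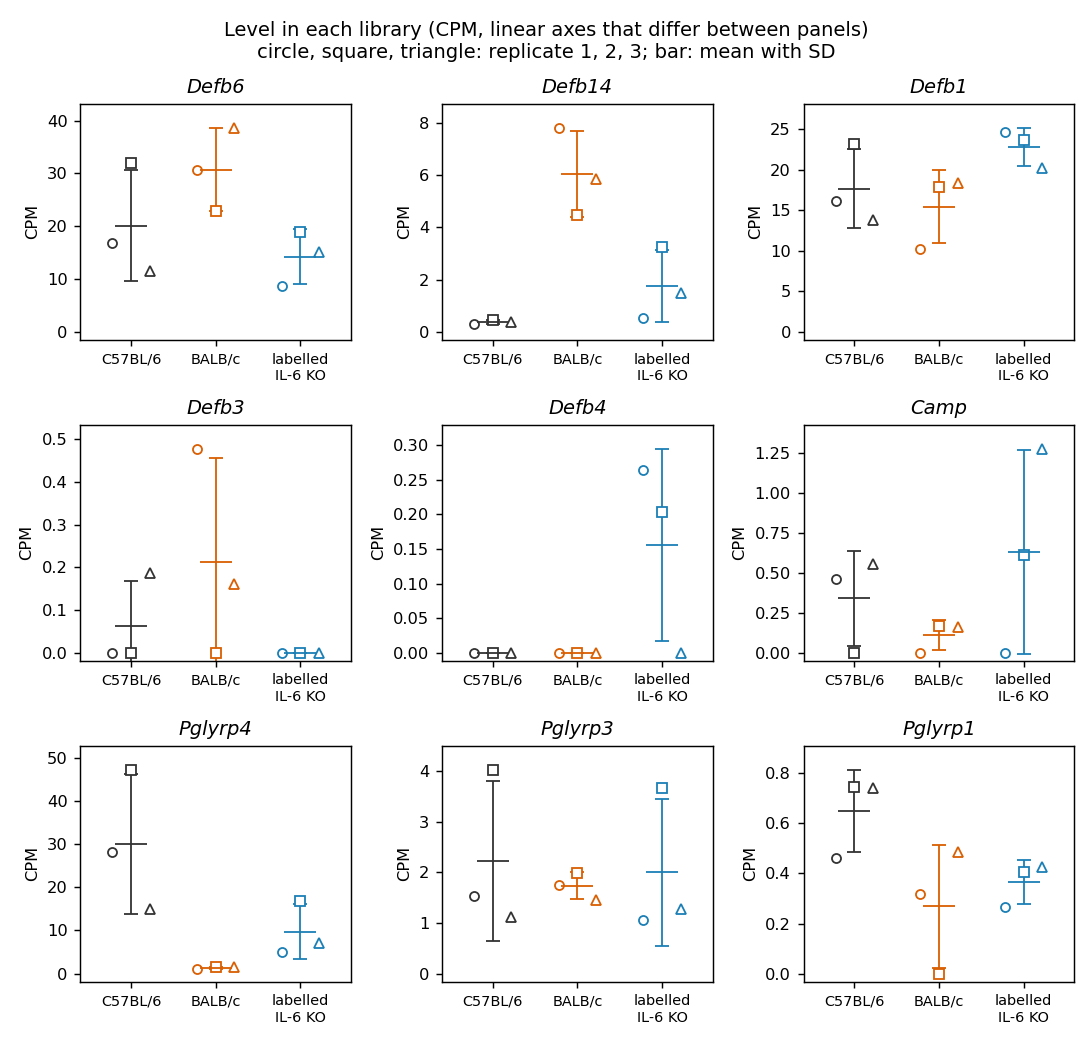
Level of each of the 9 genes in each library, in CPM after TMM scaling (vertical axes that differ between panels), by group; circles, squares and triangles are replicates 1, 2 and 3 and bars are mean and SD of 3 libraries. Defb14 lies at 4.49 to 7.80 CPM in BALB/c and at 0.307 to 0.447 CPM in C57BL/6, and Pglyrp4 at 1.36 ± 0.211 CPM in BALB/c and at 14.9 to 47.1 CPM in C57BL/6.

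The first comparison asked how the 2 wild type strains differ. Defb14 was higher and Pglyrp4 lower in BALB/c skin, and Defb1, Defb6 and Pglyrp3 did not pass the test. Thus 2 of the 5 tested genes were called, 1 in each direction, where 3.41% of all 14415 tested genes were called, 1.63% higher and 1.78% lower. Defb14 was 6.04 ± 1.66 CPM in BALB/c and 0.375 ± 0.0701 CPM in C57BL/6, a log2 difference of 3.93 ± 0.582 (SE; adjusted p = 0.00757, edgeR quasi-likelihood test with Benjamini-Hochberg adjustment). Because C57BL/6 had only 7 Defb14 reads, the ratio of summed reads is also given: 16.1, with an exact 95% counting interval of 7.57 to 41.0. Defb14 passed the filter on low counts through its BALB/c reads.

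Pglyrp4 was 1.36 ± 0.211 CPM in BALB/c and 30.0 ± 16.2 CPM in C57BL/6, a log2 difference of -4.45 ± 0.592 or 21.9-fold (adjusted p = 0.00430). Both Defb14 and Pglyrp4 had groups that did not overlap, as did 30.2% of all tested genes. Without BALB/c replicate 2, the library with Xist reads, the log2 difference was 4.11 for Defb14 (adjusted p = 0.0239) and -4.52 for Pglyrp4 (adjusted p = 0.0300), again by edgeR.

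The other 3 tested genes leave room for moderate differences. Defb6 was 30.7 ± 7.83 CPM in BALB/c and 20.1 ± 10.6 CPM in C57BL/6, with a 95% interval of the log2 difference from -0.25 to 1.46 (adjusted p = 0.422). Defb1 was 15.4 ± 4.55 and 17.7 ± 4.87 CPM, with an interval from -0.79 to 0.39 (adjusted p = 0.725). For Pglyrp3, at 1.74 ± 0.268 and 2.23 ± 1.57 CPM, the interval ran from -1.68 to 0.92 (adjusted p = 0.768).

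**Figure D2:**
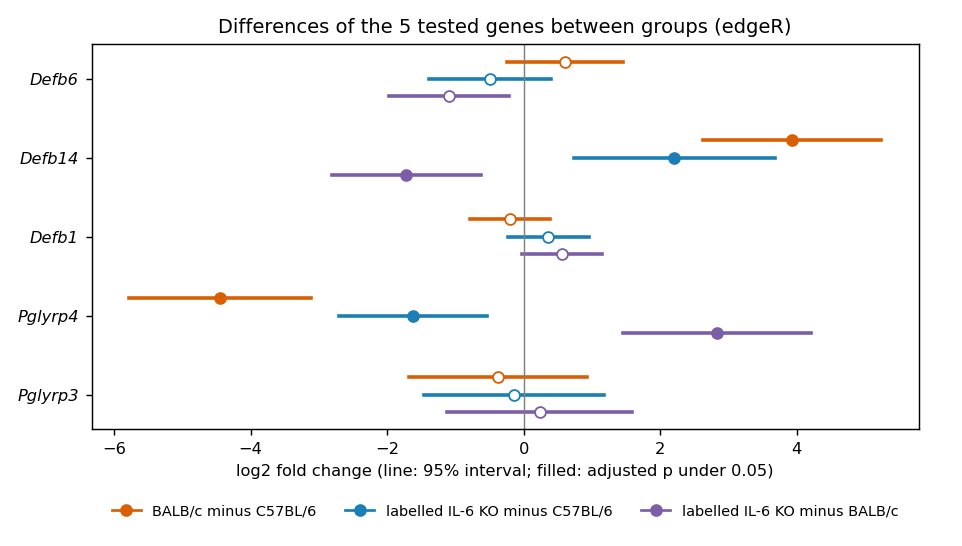
Log2 fold changes of the 5 tested genes in the 3 comparisons (horizontal axis, log2 units), with 95% intervals as lines; filled points have an adjusted p under 0.05 in edgeR. Defb14 and Pglyrp4 are filled in all 3 comparisons, at 3.93 and -4.45 between BALB/c and C57BL/6, and the 9 points of Defb6, Defb1 and Pglyrp3 are open.

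The second comparison set the IL-6 KO-labelled libraries against C57BL/6, the strain given for both, and uses the same C57BL/6 libraries as the first. Defb14 was higher and Pglyrp4 lower: 2 of the 5 tested genes were called, 1 in each direction, where 35.2% of all tested genes were called (19.2% higher and 16% lower). Defb14 was 0.529, 3.26 and 1.49 CPM in the IL-6 KO-labelled libraries, all above the C57BL/6 libraries, although replicate 1 rests on 2 reads. It was in this test through its BALB/c reads: in a model of these 2 groups alone it fell below the filter on low counts, and Pglyrp4 missed the threshold (adjusted p = 0.0577, edgeR). In the model of all 9 libraries, Defb14 had a log2 difference of 2.21 ± 0.656 (adjusted p = 0.0276, edgeR). The ratio of summed reads, 25 against 7 before scaling, was 4.95, with a counting interval of 2.08 to 13.6. Non-overlapping groups were seen in 47.5% of all tested genes and in 1 of the 5, Defb14. Pglyrp4 was 5.02, 16.9 and 7.01 CPM in the IL-6 KO-labelled libraries against 28.1, 47.1 and 14.9 CPM in C57BL/6, a log2 difference of -1.62 ± 0.484 (adjusted p = 0.0277).

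Both calls were lost when certain single libraries were left out. Defb14 passed in 11 of 17 alternatives and Pglyrp4 in 13 of 18, with unchanged direction in all of them. For Defb14 the call was lost without C57BL/6 replicate 1, 2 or 3 or without replicate 2 or 3 of the IL-6 KO-labelled libraries, with log2 differences of 2.07 to 2.35 in 4 of these 5 fits and of 1.42 without that replicate 2 (adjusted p = 0.0976). For Pglyrp4 it was lost without C57BL/6 replicate 1 or 2 or without replicate 1 or 3 of the IL-6 KO-labelled libraries, with log2 differences of -1.68, -1.15, -1.33 and -1.43 in that order (adjusted p = 0.0576 to 0.103).

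Defb1, Defb6 and Pglyrp3 did not pass between the IL-6 KO-labelled libraries and C57BL/6. The 95% interval of the log2 difference ran from -0.23 to 0.95 for Defb1 (adjusted p = 0.307), from -1.38 to 0.40 for Defb6 (adjusted p = 0.360) and from -1.47 to 1.18 for Pglyrp3 (adjusted p = 0.871).

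The third comparison set the IL-6 KO-labelled libraries against BALB/c and shares its libraries with the other two. Pglyrp4 was higher and Defb14 lower in the IL-6 KO-labelled libraries, so 2 of the 5 tested genes were called, 1 in each direction, where 37.3% of all tested genes were called (19.9% higher and 17.4% lower). Pglyrp4 differed by 2.83 ± 0.614 log2 units (adjusted p = 0.00691), and the call was kept in all 18 alternatives (2.14 to 3.13). Defb14 differed by -1.72 ± 0.486 log2 units (adjusted p = 0.0213), and this call was lost without BALB/c replicate 1 or 3 or without replicate 1 or 3 of the IL-6 KO-labelled libraries (adjusted p up to 0.0843). Without replicate 2 of that group, the library with most Defb14, the difference was -2.51 (adjusted p = 0.00295).

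Defb6 came close to the threshold in the same comparison. It was 8.73, 18.9 and 15.1 CPM in the IL-6 KO-labelled libraries and 30.6, 22.9 and 38.6 CPM in BALB/c, a log2 difference of -1.10 ± 0.394 (adjusted p = 0.0537), and 8 of 18 alternatives called it. Defb1 was 22.8 ± 2.33 CPM against 15.4 ± 4.55 CPM, with an interval from -0.03 to 1.15 (adjusted p = 0.121). Counting these, 4 of the 5 tested genes had groups that did not overlap, where 50.7% of all tested genes did. Pglyrp3 overlapped, with an interval from -1.13 to 1.59 (adjusted p = 0.786).

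Ratios taken within a library do not depend on its depth or scaling, and were computed after the values were seen. Each C57BL/6 library held 18.3, 11.7 and 13.3 reads of Pglyrp4 per read of Pglyrp3. In BALB/c the ratio was 0.636, 0.75 and 1, and in the IL-6 KO-labelled libraries it was 4.75, 4.61 and 5.5. The groups did not overlap, and how many other gene pairs would separate in this way was not computed. In C57BL/6 and in the IL-6 KO-labelled libraries the ratio spread less than Pglyrp4 itself, which varied 3.17-fold and 3.36-fold in CPM, whereas in BALB/c it spread more. Reads of Defb14 per 100 reads of Defb6 were 1.82, 1.40 and 3.23 in C57BL/6 and 25.5, 19.6 and 15.1 in BALB/c, while the IL-6 KO-labelled libraries held 6.06, 17.2 and 9.86. By this ratio C57BL/6 was below all other libraries, and BALB/c and the IL-6 KO-labelled libraries overlapped.

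**Figure D3:**
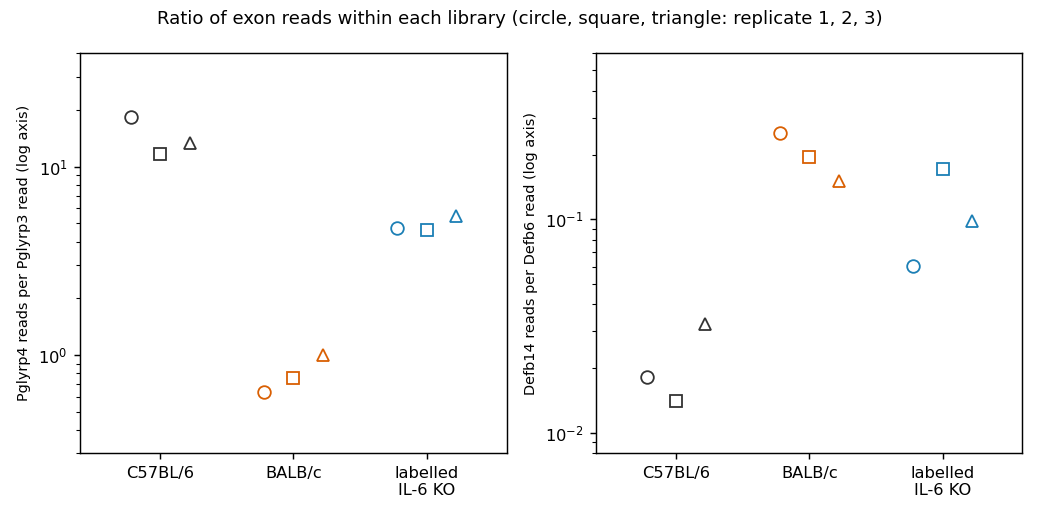
Reads of Pglyrp4 per read of Pglyrp3 (left) and of Defb14 per read of Defb6 (right) in each library, on log axes; circles, squares and triangles are replicates 1, 2 and 3. The Pglyrp4 ratio is 11.7 to 18.3 in C57BL/6, 0.636 to 1 in BALB/c and 4.61 to 5.5 in the IL-6 KO-labelled libraries.

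Within C57BL/6 and within the IL-6 KO-labelled libraries, but not within BALB/c, Defb6, Defb14, Pglyrp3 and Pglyrp4 were highest in the same library, and Defb1 less clearly so. C57BL/6 replicate 2 was the highest of its group in Defb1, Defb6, Pglyrp3, Pglyrp4 and Defb14, the last only by 3 reads against 2 and 2. Replicate 2 of the IL-6 KO-labelled libraries was the highest in Defb6, Defb14, Pglyrp3 and Pglyrp4. Across the 9 libraries, deviations of log2 CPM from the group mean correlated at r = 0.63 to 0.94 among these 4 genes, highest between Pglyrp3 and Pglyrp4, and at r = -0.22 to 0.52 between Defb1 and each of them, a description over libraries that share their depth and cell mixture. Replicate 2 of C57BL/6 and replicate 2 of the IL-6 KO-labelled libraries also had the highest differentiated keratinocyte sum of their group, 24987 and 27701 CPM.

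Expressed per 1000 CPM of those 17 keratinocyte genes, also computed after the values were seen, Pglyrp4 was 1.37, 1.89 and 0.940 CPM in C57BL/6, 0.0460, 0.0615 and 0.0535 CPM in BALB/c, and 0.693, 0.610 and 0.704 CPM in the IL-6 KO-labelled libraries. The 3 groups did not overlap on this scale, although C57BL/6 and the IL-6 KO-labelled libraries did in plain CPM. Defb14 on the same scale was 0.0150, 0.0179 and 0.0235 CPM in C57BL/6, 0.322, 0.184 and 0.214 CPM in BALB/c, and 0.0730, 0.118 and 0.149 CPM in the IL-6 KO-labelled libraries, again without overlap. Defb6 was 0.728 to 1.28, 0.943 to 1.42 and 0.684 to 1.51 CPM, and its 3 groups overlapped. Defb1 was 0.787 to 0.925 CPM in C57BL/6 and 0.421 to 0.731 CPM in BALB/c, which did not overlap here, and 3.39, 0.853 and 2.03 CPM in the IL-6 KO-labelled libraries. Pglyrp3 was 0.0705 to 0.161, 0.0535 to 0.0820 and 0.128 to 0.146 CPM in the same order, so that BALB/c and the IL-6 KO-labelled libraries did not overlap. The divisor bears on these values, since the summed level was lowest in replicates 1 and 3 of the IL-6 KO-labelled libraries while the list's median log2 difference between that group and C57BL/6 was 0.57. The Defb14 values rest on 2 or 3 reads in each C57BL/6 library and on 2 in replicate 1 of the IL-6 KO-labelled libraries. How many of all tested genes separate on this scale was not computed. In plain CPM, 30.2% to 50.7% did between pairs of groups.

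**Figure D4:**
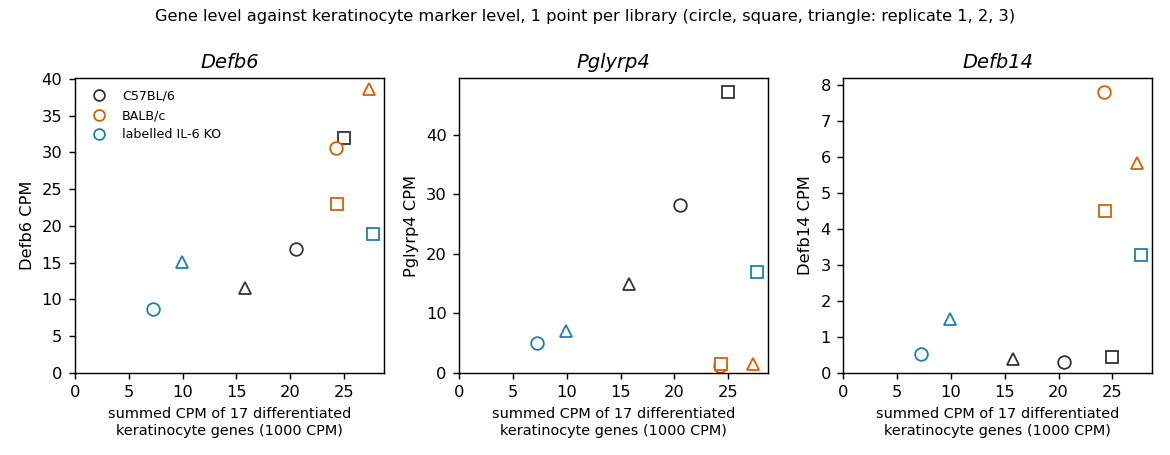
CPM of Defb6, Pglyrp4 and Defb14 (vertical axes) against the summed CPM of 17 differentiated keratinocyte genes (horizontal axis, in units of 1000 CPM), 1 point per library, coloured by group. Replicate 2 of C57BL/6 and of the IL-6 KO-labelled libraries (squares) lie farthest right in their groups, at 24987 and 27701 CPM, and the BALB/c points stay near the bottom of the Pglyrp4 panel at 1.36 ± 0.211 CPM.

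The genes whose log2 CPM followed each of the 5 most closely over the 9 libraries were found by Pearson correlation, which here includes the differences between groups and is given as a description. Defb14 was followed by 3 late cornified envelope genes, Lce1e (r = 0.98), Lce6a (0.98) and Lce1d (0.97). Lce1e was 13.4 ± 1.39 CPM in C57BL/6, 107 ± 31.4 CPM in BALB/c and 48.0 ± 32.5 CPM in the IL-6 KO-labelled libraries, the same order of means as Defb14. Pglyrp4 was followed by Rfwd2 (0.98), Mgp (0.98) and Skint4 (0.97). Skint4 was 22.6 ± 8.53, 0.164 ± 0.162 and 11.9 ± 10.3 CPM in the order C57BL/6, BALB/c and labelled IL-6 KO. Defb1 was followed by Dsp (0.94), Lrig3 (0.91) and Pkp1 (0.91), of which Dsp and Pkp1 encode desmosome proteins. Defb6 was followed by Ugt1a1 (0.93), Ilvbl (0.93) and Elovl4 (0.92), and Pglyrp3 by Pdlim2 (0.95), Pla2g2f (0.92) and Lmbrd1 (0.92).

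Other antimicrobial proteins of skin, a list that shares S100a8, S100a9, Lcn2, Ltf and Chil3 with the neutrophil genes, are the nearest functional neighbours of the 9 genes. Of 19 tested, 0 were higher and 1 was lower in BALB/c than in C57BL/6, the ribonuclease gene Ang (log2 difference -2.16, edgeR). At an unadjusted p under 0.05 the count was 6 in both directions together, and DESeq2 called 3, Ang, Lyz1 and Sprr2a2. In the IL-6 KO-labelled libraries, 9 of the 19 exceeded and 0 fell below C57BL/6. The median log2 difference was 0.76 over the list against 0.01 over all tested genes. Against BALB/c, 9 exceeded and 3 fell below (median 1.02). Of all tested genes, 19.2% exceeded and 16% fell below C57BL/6, and 19.9% exceeded and 17.4% fell below BALB/c. The count of 9 against C57BL/6 was the same at an unadjusted p under 0.05 and by DESeq2. Of all 14415 tested genes, 6621 had an unadjusted p under 0.05 in that comparison, and DESeq2 called 5419. S100a7a, a psoriasin-related S100 gene, was 103 ± 63.2 CPM in the IL-6 KO-labelled libraries, against 1.56 ± 0.822 CPM in C57BL/6 and 0.969 ± 0.413 CPM in BALB/c. The same libraries also had all 8 genes of stressed or proliferating keratinocytes higher than in C57BL/6, at a summed 3950 to 4718 CPM against 506 to 876 CPM. All 12 hair genes were higher there too, at a summed 16364 to 65070 CPM against 10.8 to 677 CPM. The part of either shift was not tested.

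Genes upstream and downstream of these proteins were read from lists as well. Of 11 tested proteases and inhibitors that process cathelicidin or other skin peptides, 0 passed edgeR's test between the strains (2 at an unadjusted p under 0.05, and 0 by DESeq2) and 5 were higher in the IL-6 KO-labelled libraries than in each wild type strain (the proteases Prss8, Klk13, Klk6 and St14, and the inhibitor Slpi, which the list of antimicrobial proteins also holds). Their median log2 difference was 0.49 against C57BL/6 and 0.57 against BALB/c, and 19.2% and 19.9% of all tested genes were higher. This list shares Prtn3, Ctsg and Elane with the neutrophil genes. Of 17 tested sensors of the bacterial cell wall and their adaptors, 0 passed between the strains by edgeR or DESeq2, and 2 had an unadjusted p under 0.05. Nod1, a receptor for peptidoglycan fragments, and Card9, an adaptor, were lower in the IL-6 KO-labelled libraries than in each strain, and Tlr6 was lower than in BALB/c, where 16% and 17.4% of all tested genes were lower. Genes of IL-17, IL-22, IL-1 and vitamin D signalling are known to control defensin and cathelicidin expression. Of 17 tested, only Nfkbiz passed between the strains. It was higher in BALB/c (0.95 log2 units, adjusted p = 0.0434, edgeR), where 3.41% of all tested genes were called. In the IL-6 KO-labelled libraries, 3 exceeded and 3 fell below C57BL/6, among them the vitamin D receptor gene Vdr (1.77) and Il1b (5.29), which were higher, and Il20ra, which was lower. That is 6 of 17 called, close to the 35.2% of all tested genes called in this comparison. Il17a and Il22 had 0 reads in all 9 libraries.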

How the data were processed

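Skin RNA (9 libraries) was counted by the authors against GRCm38, per the submitters' processing notes. The aligner is not given in the sources used here. Deposited counts are raw whole reads per gene, per the file headers, and total exon reads were used. The first C57BL/6 file stacks 3 tables, and the first was taken. All groups were mapped to the same reference, which is of the C57BL/6 genome, and whether this cost BALB/c reads was not tested.

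The 9 genes and all gene lists were chosen with earlier results of these data known. Genes were filtered with filterByExpr (minimum count 10, total 15), leaving 14415, scaled by TMM (factors 0.887 to 1.1) and tested with edgeR 4.0.16 (R 4.3.3) quasi-likelihood tests, 1 model of 9 libraries with 6 residual degrees of freedom, Benjamini-Hochberg adjustment over all tested genes and a threshold of 0.05. RPKM was recomputed as total exon reads over exon length and over all exon reads of the library. Log2 CPM used a prior count of 2. Alternatives included DESeq2 1.42.0. The scripts were tested on simulated data. They recovered 32% to 37% of 2-fold and 74% to 85% of 4-fold changes across the 3 comparisons. False calls were 4.84% of calls between the strains. For the IL-6 KO-labelled libraries they were 8.20% against C57BL/6, above the 0.05 threshold, and 5.36% against BALB/c. Of each list, up to 3 called genes with the smallest p-values, or all of 5 or fewer, may be named, and for each tested gene the 3 most correlated among genes of at least 5 CPM. Xist, Eif2s3y, Defb8, Prtn3 and the granule genes Ngp, Ltf, Mpo, Elane and Ctsg were named after their values were seen.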

Additional observations from a re-analysis of the deposited data

How the results depend on the processing

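In BALB/c against C57BL/6, the 2 calls (Defb14 and Pglyrp4) were kept in all 18 alternatives, at log2 differences of 3.71 to 4.11 and -4.77 to -3.97. In the IL-6 KO-labelled libraries against C57BL/6, 2 calls became 1 with the replicate block (Defb14 adjusted p = 0.0578), 0 in a model of only the groups compared (Pglyrp4 adjusted p = 0.0577, with Defb14 below the filter there) and 0 to 2 when each library was left out in turn. Against BALB/c, 2 calls became 1 to 3 when each library was left out, and 3, with Defb6, under DESeq2, no filter on low counts and the other count columns. In the model of only these groups Defb6 was called (adjusted p = 0.0448) and Defb14 was not (0.0529). No called gene changed direction. The cause of these changes was not tested, apart from fewer libraries where 1 was left out.

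Replicate numbers did not pair the samples: same-numbered libraries of different groups correlated at -0.21 to 0.06 in their deviations from the group means. The block changed no call other than that of Defb14. Over all tested genes in BALB/c against C57BL/6, 491 calls became 255 with the block, 1033 under DESeq2, and 167 to 977 when a library was left out, the lowest without BALB/c replicate 3 and the highest without replicate 2 of the IL-6 KO-labelled libraries. For the IL-6 KO-labelled libraries, leaving out 1 library gave 3238 to 6806 calls against C57BL/6 (5068 with all) and 3310 to 7044 against BALB/c (5370 with all). With scaling by library size alone, the median log2 difference of all genes in the IL-6 KO-labelled libraries against C57BL/6 was 0.15, in place of 0.01. Depth limits Defb3, Defb4, Camp and Pglyrp1, which had at most 6 reads in a library, to statements of detection.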
